A study of Homo sapiens with 21 samples.

Results

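The CD14 locus on human chromosome 5 was described from the 7 Tri-C tables that carry its name, 1 of the 53 loci and 7 of the 371 tables of the series. CD14 encodes the surface co-receptor with which monocytes and macrophages bind bacterial lipopolysaccharide, and it is a standard marker of the monocyte and macrophage lineage. The libraries come from BLaER1, a line of leukaemic human B cells with an inducible C/EBPα, which 17β-estradiol, IL-3 and CSF-1 convert to cells that resemble macrophages (iMacs). Tri-C captures a fixed fragment, the viewpoint, and counts pairs of other fragments that were ligated to it at the same time, so each count is a contact of 3 fragments.

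Enhancer libraries were made from BLaER cells before conversion (0 h, without the factors) and at 24 and 96 h. A further enhancer library came from a CTCF-AID subclone at 96 h with auxin, in which CTCF carries an auxin-inducible degron. CBS libraries, captured from a CTCF-binding site, were made from BLaER cells at 0, 24 and 96 h. There were 3 replicates in each of the 7 groups, but each deposited table pools them. No spread between replicates could therefore be measured, and every test compares libraries, not conditions. All intervals cover counting error only and treat counts as independent. A read with several fragments gave several counts, so intervals and p-values may understate even that error. The depleted library differs from the 96 h library by a subclone as well as by auxin, and these cannot be told apart. Neither CTCF binding nor CD14 RNA was measured in these tables.

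CTCF binds DNA at an oriented motif and stops cohesin as it extrudes loops, so that many CTCF-binding sites mark the edges of contact domains. Enhancers are distal elements that raise the transcription of a promoter, and the contact of an enhancer with a promoter is commonly more frequent within such a domain than across its edge. CD14 is a gene of the minus strand (ENSG00000170458, chr5:140631728-140633700, hg38), with its canonical start at 140633175. Positions below are given in kb from that start, negative to the left (lower coordinates, towards and beyond the 3′ end of the gene) and positive to the right.

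The enhancer viewpoint was a fragment of 243 bp at chr5:140611648-140611890, between genes and 21.4 kb left of the start. The boundary CTCF site viewpoint was a fragment of 149 bp at chr5:140635065-140635213, between genes and 2.0 kb right of the start. Of the 51 loci with a listed capture oligonucleotide, CD14 had the boundary site nearest to its start, against a median of 149.8 kb, and only CD14 and MXD1 had one within 5 kb. The paper names CTCF sites within 5 kb of a promoter promoter-proximal, and the CD14 site meets that distance. It is called the boundary site below because it was the captured CTCF site. The 2 captured fragments are shown because every count was taken from one of them, and the stretch at -57.6 kb because it is the other listed CTCF site within 100 kb with a match to a CTCF core motif. Capitals mark the core, CCNNNAGNNGGC, searched on both strands. The fragments end at NlaIII sites, whose CATG is not shown.
enhancer viewpoint fragment, plus strand: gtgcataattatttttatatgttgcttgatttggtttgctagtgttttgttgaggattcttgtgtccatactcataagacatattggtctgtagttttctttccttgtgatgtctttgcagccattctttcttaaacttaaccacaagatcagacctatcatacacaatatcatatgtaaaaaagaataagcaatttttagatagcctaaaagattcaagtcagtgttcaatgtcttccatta
boundary site viewpoint fragment, minus strand: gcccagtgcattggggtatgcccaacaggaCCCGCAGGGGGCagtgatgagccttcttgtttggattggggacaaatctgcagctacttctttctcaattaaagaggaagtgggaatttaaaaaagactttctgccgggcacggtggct
CTCF -57.6 kb, chr5:140575418-140575469, minus strand: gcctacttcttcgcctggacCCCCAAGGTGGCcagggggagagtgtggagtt

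The core stood once in the boundary fragment, on the minus strand, and in no place in the enhancer fragment. Of 18 CTCF sites that the study listed for CD14 from pairwise contacts in the same cells, 7 held a match in a window of 600 bp, against 7.23% of 3333 windows of that length over the region. The list was drawn from the same cells and is not independent of them. The matches at -281.3, -57.6 and +2.0 kb and in the site farthest right lay on the minus strand, and those at -388.5, -286.3 and -269.8 kb on the plus strand. The last of these, in an intron of SLC4A9, a bicarbonate transporter gene, is shown as the plus-strand match nearest to CD14.
CTCF -269.8 kb, chr5:140363330-140363381, plus strand: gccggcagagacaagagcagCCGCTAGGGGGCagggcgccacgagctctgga
The fragment of the -57.6 kb match (chr5:140575178-140575495) lies in an intron of a long non-coding RNA gene, and no match was found within 300 bp of the other listed sites within 100 kb, at -85.2, -75.6, +0.3, +6.1, +58.2, +78.0 and +87.2 kb, which says only that these letters are not in those windows.

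Counts with both fragments within 1 Mb of the viewpoint numbered 46021, 41212 and 33881 in the enhancer libraries at 0, 24 and 96 h and 48831 in the depleted one, and 39349, 48559 and 38375 in the CBS libraries at 0, 24 and 96 h. A count was called distant where the viewpoint and the 2 fragments all lay over 10 kb apart. They made up 23.9%, 21.1% and 20.8% of the enhancer totals at 0, 24 and 96 h and 14.6% of the depleted total, and they numbered 11272, 15535 and 12487 in the CBS libraries at 0, 24 and 96 h. Shares below are of all counts within 1 Mb unless stated otherwise. Since the depleted library held fewer distant counts (log2 odds ratio -0.62 against the 96 h library, exact p = 6.34e-143), changes of the depleted over the 96 h library are given for both totals, counts within 1 Mb first, and several differ between them.

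The CD14 enhancer met the CD14 promoter and the boundary site beside it more often as the cells converted. The 5 kb around the CD14 start appeared in 325, 429 and 531 distant counts at 0, 24 and 96 h, or 0.706%, 1.04% and 1.57% of the total. The share rose at each step, and the 95% intervals (0.632 to 0.787, 0.945 to 1.14 and 1.44 to 1.71%) did not overlap. The log2 odds ratio was 1.16 for 96 h over 0 h (0.96 to 1.37, adjusted p = 1.11e-30 in an exact conditional binomial test over 51 loci). Of these loci, 72.5% were called higher at 96 h than at 0 h at an adjusted p under 0.05, and CD14 had the 13th highest ratio. The ratio was 0.56 for 24 h over 0 h, a step at which 49% of loci were called higher, and 0.60 for 96 h over 24 h, at which 56.9% were.

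The boundary site followed the same course. Its 5 kb window held 470, 617 and 777 distant counts at 0, 24 and 96 h, or 1.02%, 1.497% and 2.29% of the total. The log2 odds ratio for 96 h over 0 h was 1.19 (1.02 to 1.35, adjusted exact p = 6.20e-45), the 10th highest of 51 loci, of which 60.8% were called higher. It was 0.56 for 24 h over 0 h and 0.63 for 96 h over 24 h, steps at which 43.1% and 49% of loci were called higher. The 2 windows share most of their length, so windows of 2 kb were set on each. In these the promoter held 130, 158 and 177 counts at 0, 24 and 96 h and the boundary site 199, 265 and 341. The log2 odds ratio for 96 h over 0 h was 0.89 at the promoter (0.56 to 1.23) and 1.23 at the boundary site (0.97 to 1.49), intervals that overlap.

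In 1 kb tiles the highest level near CD14 lay 3 kb to the right of the start in each of the 4 enhancer libraries, 1 tile beyond the tile that holds the boundary fragment. That tile held 189, 227 and 287 counts at 0, 24 and 96 h, and the tile on the start itself 89, 101 and 132. The boundary fragment alone, 149 bp long, appeared in 30, 35 and 47 distant counts at 0, 24 and 96 h (log2 odds ratio 1.08 for 96 h over 0 h, 0.40 to 1.80, unadjusted exact p = 0.00114). The fragment of the CD14 start, 572 bp long, appeared in 21, 41 and 41 (1.39, 0.62 to 2.24, unadjusted exact p = 0.00025).

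**Figure D1:**
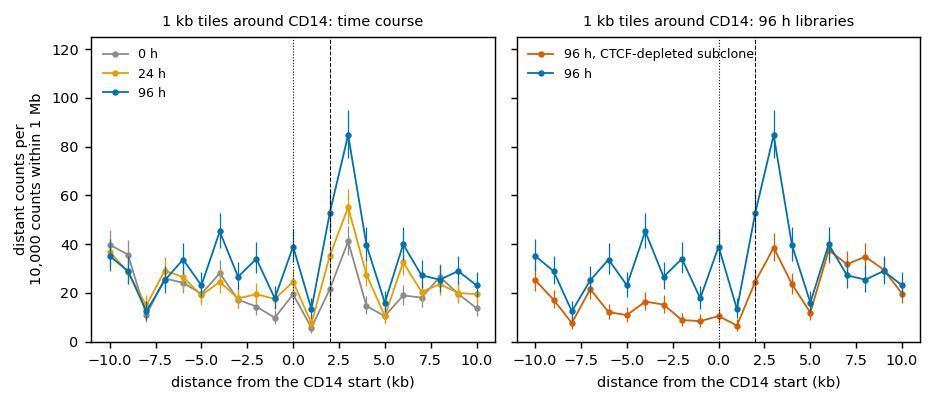
Distant counts of the enhancer viewpoint per 10000 counts within 1 Mb (vertical axis) in 1 kb tiles from -10 to +10 kb of the CD14 start (horizontal axis), at 0, 24 and 96 h on the left and in both 96 h libraries on the right, with exact 95% counting intervals as bars. The dotted line is the CD14 start and the dashed line the boundary site; the highest tile is centred at 3 kb in all 4 libraries, with 188 counts in the depleted library and 287 in the 96 h library.

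Most of the gain was in contacts whose other fragment lay on the left of the enhancer. Of counts that joined the enhancer and the 2 kb of the boundary site, those whose partner lay between -100 kb and a point 10 kb left of the enhancer numbered 65, 113 and 191 at 0, 24 and 96 h, or 32.7% (26.2 to 39.7), 42.6% (36.6 to 48.8) and 56.0% (50.6 to 61.4) of the window. Those whose partner lay beyond 50 kb on the right numbered 46, 33 and 16, or 23.1%, 12.5% and 4.69%. The same held for the 2 kb of the promoter, where partners in that left band numbered 46, 70 and 97 of its counts. The same shift was seen over all distant counts of the enhancer. Fragments between 100 and 500 kb to the right fell from 12.4% of the fragments in these at 0 h to 3.68% at 96 h. Fragments in nearly the same left band made up 21.0%, 27.2% and 37.7% at 0, 24 and 96 h. The shift was thus not particular to counts with the boundary site or the promoter, and an excess in these was not tested. These bands were drawn after the profile had been seen and are a description.

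That band holds the starts of EIF4EBP3 (a repressor of cap-dependent translation), SRA1, APBB3 (an adaptor that binds the amyloid precursor protein) and SLC35A4 (a solute carrier), CTCF sites at -85.2, -75.6 and -57.6 kb, and several listed enhancers. All 3 CTCF sites were called higher from the enhancer at 96 h than at 0 h, where a call needs an adjusted p under 0.05 and a ratio of 1.5. Against these stood 5.82% of 189 tiles of 5 kb called higher and 57.1% called lower, with a median log2 odds ratio of -0.94. The site at -75.6 kb, which is the SRA1 start, held 195, 267 and 350 counts at 0, 24 and 96 h, a log2 odds ratio of 1.29 for 96 h over 0 h (1.04 to 1.55). The site at -57.6 kb held 332, 323 and 443 counts at 0, 24 and 96 h (0.87 for 96 h over 0 h, 0.66 to 1.08), with 0.12, not called, for 24 h over 0 h and 0.75 for 96 h over 24 h. The site at -85.2 kb held 190, 251 and 243 (0.80, 0.52 to 1.08).

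Of the 4 gene starts in the band, SRA1, APBB3 and SLC35A4 were called higher (1.29, 0.64 and 0.62), and EIF4EBP3, at 0.58, was not. Of 6 listed enhancers within 100 kb on the left, 5 were called higher at 96 h than at 0 h (median 0.80). The element at -44.1 kb held 504, 405 and 640 counts at 0, 24 and 96 h, and that at -37.7 kb 587, 533 and 599, with a log2 odds ratio for 96 h over 0 h of 0.80 at the first and 0.48, not called, at the second. Windows of neighbouring elements overlap, so their counts are not separate observations. The largest gains among called tiles were those centred at -83.9, -73.9, -78.9 and 1.1 kb and at -43.9 kb, with log2 odds ratios of 1.21, 1.19, 1.18, 1.11 and 0.86.

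**Figure D2:**
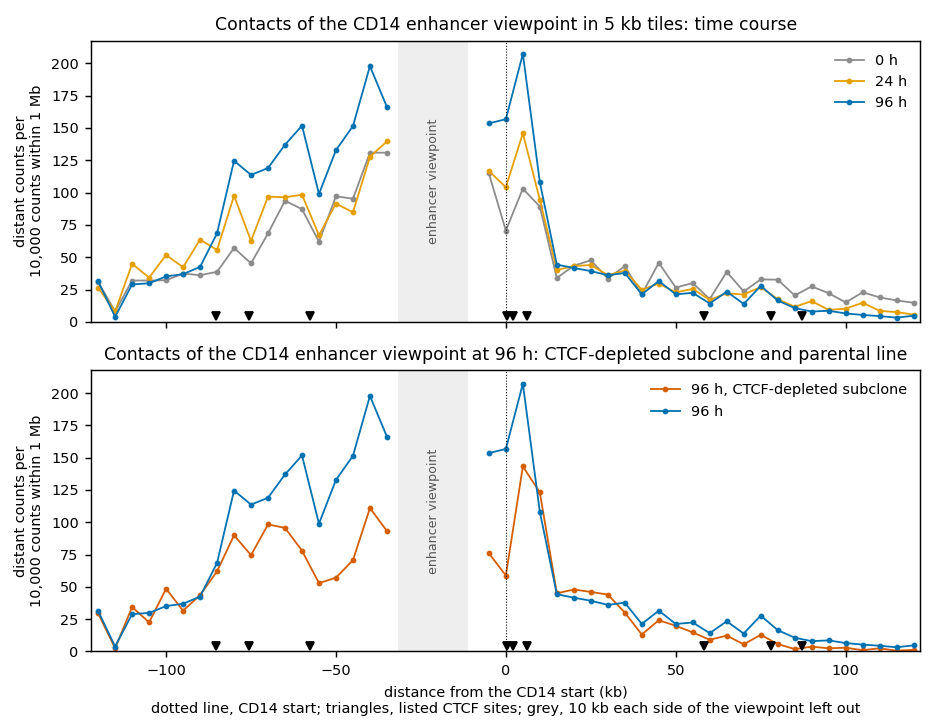
Distant counts of the enhancer viewpoint per 10000 counts within 1 Mb (vertical axis) in 5 kb tiles from -120 to +120 kb of the CD14 start (horizontal axis), at 0, 24 and 96 h above and in the depleted and parental 96 h libraries below. Triangles mark listed CTCF sites and the grey band is left out around the viewpoint; the 96 h line stands above the 0 h line in every tile drawn from -90 to +15 kb, and the depleted line stands above the parental one from +10 to +30 kb.

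To the right of the boundary site the change turned with distance, higher near the site and lower farther out. At +6.1 kb, a CTCF site at the TMCO6 start, the window held 407, 471 and 501 counts at 0, 24 and 96 h and was called higher at 96 h than at 0 h (0.75, 0.56 to 0.94). Next to the right, IK, a splicing factor gene, and NDUFA2, which encodes a subunit of mitochondrial complex I, start 14.7 and 14.5 kb from CD14. Neither was called (0.40 and 0.36 for 96 h over 0 h), nor was WDR55, with a start at +31.7 kb (-0.06), nor DND1, an RNA-binding protein gene of germ cells (-0.16), nor HARS1 and HARS2, the cytosolic and mitochondrial histidyl-tRNA synthetase genes (0.13 and -0.06). ZMAT2, a zinc finger gene with a start at +67.3 kb, held 135, 75 and 51 counts at 0, 24 and 96 h and was called lower (-0.96, -1.46 to -0.49). The CTCF site at +87.2 kb held 62, 37 and 21 (-1.10, called lower), while those at +58.2 and +78.0 kb were not called (-0.06 and -0.47).

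Farther right the fall was deeper. Fragments between 100 and 500 kb to the right made up 12.4%, 5.84% and 3.68% of the fragments in distant counts at 0, 24 and 96 h. The tile centred at 236.1 kb held 34, 4 and 0 counts, and that at 131.1 kb 44, 28 and 1. Of fragments over 10 kb to the right of the enhancer, those beyond the boundary site numbered 7303 of 8407 at 0 h, 4495 of 5533 at 24 h and 3174 of 4189 at 96 h, or 86.9%, 81.2% and 75.8%, with the 5 kb on the site left out. Fragments short of the site came only from the strip between that 10 kb limit and the site. The log2 odds ratio for 96 h over 0 h was -1.08, and 74.5% of the 51 loci were called lower by that measure, against 43.1% for 24 h over 0 h and 72.5% for 96 h over 24 h. No interval or p is given, since the test takes the few fragments short of the site as fixed and so understates the error. The calls of loci rest on the same test. With fragments within 20 kb of the viewpoint left out, which leaves little of that strip, the 96 h over 24 h value moved to -0.12 from -0.47, and the 24 h over 0 h value to -1.43 from -0.61.

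The far left behaved otherwise. Of 8 CTCF sites between -393.1 and -231.9 kb, 1 was called higher at 24 h than at 0 h and 4 were called lower at 96 h than at 0 h, while 5 were lower at 96 h than at 24 h. Of all tiles, 5.64% were called higher for 24 h over 0 h, 57.1% lower for 96 h over 0 h and 23.3% lower for 96 h over 24 h. The 4 of 8 sites lower at 96 h than at 0 h were thus near the share of all tiles. The site at -286.3 kb held 69, 129 and 31 counts at 0, 24 and 96 h, so the enhancer met it most at 24 h (log2 odds ratio 1.06 for 24 h over 0 h and -1.76 for 96 h over 24 h). The listed enhancer at -381.5 kb did likewise, with 85, 154 and 52 counts.

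From the boundary site itself, the CD14 enhancer was also met more often with conversion. The 5 kb around the enhancer viewpoint held 572, 988 and 1073 distant counts of the CBS libraries at 0, 24 and 96 h, or 1.45%, 2.03% and 2.80% of the total. The log2 odds ratio was 0.96 for 96 h over 0 h (0.82 to 1.11, adjusted exact p = 3.82e-38), the 13th highest of 51 loci, of which 47.1% were called higher. It was 0.49 for 24 h over 0 h and 0.47 for 96 h over 24 h, steps at which 17.6% and 49% of loci were called higher. The enhancer fragment alone was seen in 31, 43 and 66 counts (1.12 for 96 h over 0 h, 0.49 to 1.79, unadjusted exact p = 0.00023). The CD14 start lies within 10 kb of this viewpoint and could not be measured from it.

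The CTCF sites on the left gained more from the boundary site than the enhancer did. The window at -85.2 kb held 255, 765 and 781 counts at 0, 24 and 96 h, that at -75.6 kb 225, 503 and 645, and that at -57.6 kb 348, 647 and 945. Their log2 odds ratios for 96 h over 0 h were 1.67, 1.57 and 1.499, and the lowest bound of the 3 intervals, 1.32, lies above the upper bound of 1.11 at the enhancer. All 3 were called, as were the 4 gene starts there and the 9 listed enhancers within 100 kb on the left, the captured one included, against 14.1% of 177 tiles called higher and 33.3% called lower. Such gains were not particular to CTCF sites. The 9 enhancers ranged from 0.78 to 1.72, the highest at -76.9 kb, and that at -56.6 kb had 1.55. The windows of these last elements overlap those of CTCF sites. The tile of largest gain, centred at -80.5 kb, had 1.72. The CTCF sites differed in time, since -85.2 kb gained 1.29 in the first 24 h and 0.38 later, while -57.6 kb gained 0.60 and then 0.90. The fragment with the core match shown above for -57.6 kb was seen in 23, 44 and 68 counts (1.58 for 96 h over 0 h, 0.90 to 2.35). From the enhancer the same fragment was seen in 15, 23 and 16 counts at 0, 24 and 96 h (0.53 for 96 h over 0 h, -0.58 to 1.65, unadjusted exact p = 0.364). It was seen in 14 in the depleted library, against 16 in the 96 h library (-0.71, -1.87 to 0.41, unadjusted exact p = 0.195), so the changes called for that 5 kb window were not shown for the fragment.

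**Figure D3:**
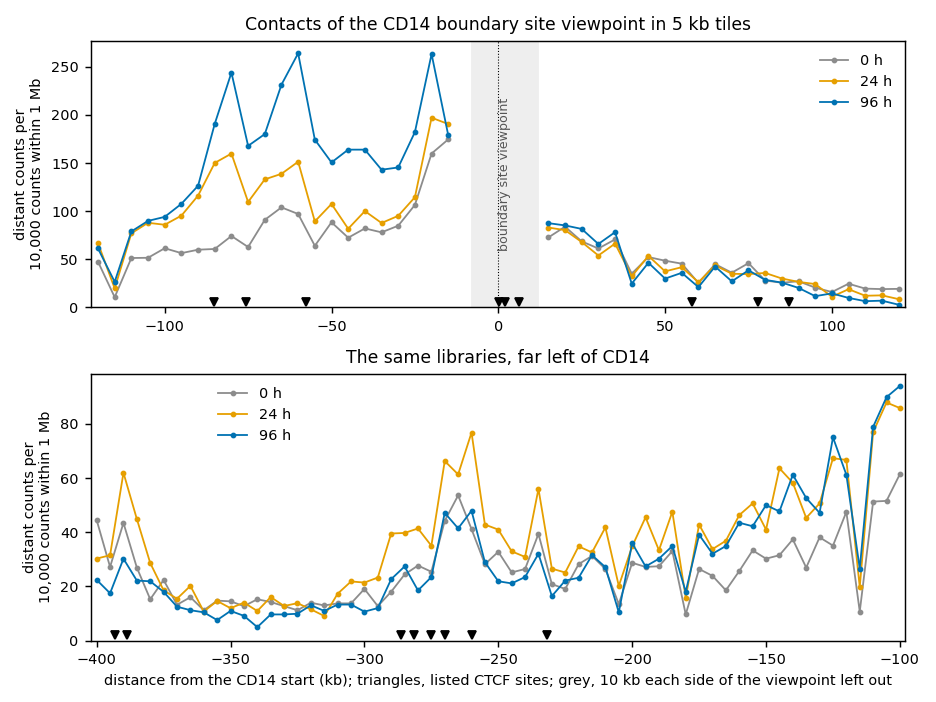
Distant counts of the boundary site viewpoint per 10000 counts within 1 Mb (vertical axis) in 5 kb tiles against distance from the CD14 start in kb (horizontal axis) at 0, 24 and 96 h, near CD14 above and from -400 to -100 kb below. The 96 h line is highest between -90 kb and the enhancer. The 24 h line is highest at the CTCF sites between -393.1 and -231.9 kb, marked by triangles, and also in tiles there without a listed site, such as those at -305 and -250 kb.

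Contacts of the boundary site with the far left passed through a high at 24 h. Of the 8 CTCF sites there, 4 were called higher at 24 h than at 0 h, 7 were lower at 96 h than at 24 h, and none was called at 96 h against 0 h. Of all tiles, 16.6% were called higher for 24 h over 0 h and 26.9% lower for 96 h over 24 h. The share of distant counts itself rose from 0 h to 24 h (log2 odds ratio 0.23), so gains at 24 h are smaller per distant count. Calls of these sites by that total are not given. The site at -388.5 kb, in CYSTM1, held 158, 318 and 109 counts at 0, 24 and 96 h (log2 odds ratio 0.71 for 24 h over 0 h and -1.21 for 96 h over 24 h), and that at -269.8 kb, whose motif is shown above, 164, 309 and 174. This course was not particular to CTCF sites. Of 5 listed enhancers in the far left, some with windows that overlap those of CTCF sites, 4 were called higher for 24 h over 0 h. For 96 h over 24 h 4 were called lower. The tile centred at -250 kb, which holds no listed CTCF site, held 32.8, 41.0 and 21.9 per 10000 counts at 0, 24 and 96 h. On the right, the windows of IK, WDR55 and ZMAT2 were not called at 96 h against 0 h (0.25, 0.37 and -0.19). Distant counts with both fragments on the left of the boundary site made up 54.2%, 65.1% and 69.7% of distant counts at 0, 24 and 96 h, and those with both on the right 14.7%, 7.07% and 4.90%.

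The depleted library at 96 h held fewer contacts of the enhancer with the CD14 promoter and with the boundary site than the parental one. The promoter window of 5 kb held 287 counts, or 0.588% of the total, in the depleted library and 531, or 1.57%, in the 96 h library (log2 odds ratio -1.43, -1.64 to -1.22, adjusted exact p = 5.22e-43). Per distant count the value was -0.96, and with each fragment pair counted once it was -0.90. The boundary window held 506 counts, or 1.04%, in the depleted library and 777, or 2.29%, in the 96 h library (-1.16, -1.33 to -1.001, adjusted exact p = 8.92e-46). Per distant count this was -0.70, and with each pair counted once -0.71. These were falls shared by most loci, since 90.2% of the 51 loci were called lower for the promoter and 92.2% for the boundary site. Against 0 h the direction at the promoter depended on the total. The promoter share of the depleted library was lower within 1 Mb, 0.588% (0.522 to 0.660) against 0.706% (0.632 to 0.787) at 0 h, and higher per distant count, 4.02% (3.57 to 4.50) against 2.96% (2.65 to 3.29) at 0 h.

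In windows of 2 kb the promoter held 87 counts in the depleted library and 177 in the 96 h library, a log2 odds ratio of -1.55 (-1.94 to -1.18) and, per distant count, of -1.06 (-1.45 to -0.68). The boundary site held 248 and 341 (-0.99, -1.24 to -0.75, and -0.50, -0.74 to -0.26, per distant count). The CTCF site at +6.1 kb held 289 counts in the depleted library and 212 in the 96 h library, or 0.592% and 0.626% of counts within 1 Mb (-0.08, -0.34 to 0.18, unadjusted exact p = 0.555). Of distant counts it held 4.04% in the depleted library and 3.00% in the 96 h library (0.44, 0.18 to 0.71). The ratio of counts at +6.1 kb to counts at the boundary site, which uses no total, was 1.17 in the depleted library and 0.622 in the 96 h library (log2 odds ratio 0.90). It was 0.764 at 0 h and 0.687 at 24 h. No interval or p is given for it, since the test takes the boundary counts as fixed though they are as few as those at +6.1 kb. This pair of windows was chosen after the profile had been seen.

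Across the region, 39.4% of 127 tiles (50) were called lower in the depleted library and 0 higher, and per distant count 15 were lower and 12 higher. On the right, the windows at TMCO6 (661 counts in the depleted library and 466 in the 96 h library), IK (229 and 167) and WDR55 (211 and 113) were not called, with log2 odds ratios of -0.02, -0.07 and 0.37. Per distant count these were 0.53, 0.45 and 0.90, and WDR55 was called higher. Farther right the CTCF sites at +58.2, +78.0 and +87.2 kb were called lower (-0.93, -1.52 and -3.15), the last with 3 counts in the depleted library and 21 in the 96 h library. Per distant count the sites at +78.0 and +87.2 kb were still called lower (-1.02 and -2.64) and that at +58.2 kb was not (-0.43). Fragments beyond the boundary site made up 84.1% of those over 10 kb to the right of the enhancer in the depleted library and 75.8% in the 96 h library. The log2 odds ratio was 0.75, with no interval for the reason given above, and 96.1% of the 51 loci were called higher by that measure. That measure counts the 4 to 50 kb band, which held 16.2% of distant fragments in the depleted library and 11.1% in the 96 h library, beside the 100 to 500 kb band, which held 2.94% and 3.68%.

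**Figure D4:**
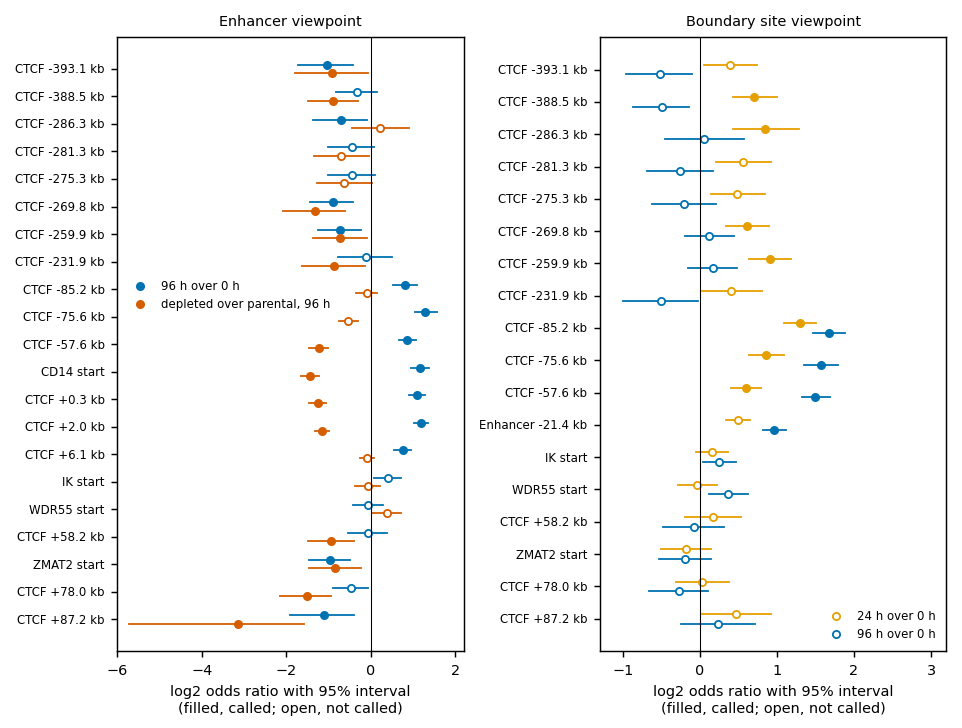
Log2 odds ratios with exact 95% intervals (horizontal axis) for CTCF sites, named by their distance from the CD14 start, and for gene starts and the enhancer, from the enhancer viewpoint (96 h over 0 h, and depleted over parental at 96 h) on the left and from the boundary site viewpoint (24 h over 0 h and 96 h over 0 h) on the right. The total is all counts within 1 Mb and filled points were called; in the depleted library the CD14 start lies at -1.43 and CTCF +6.1 kb at -0.09.

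On the left, the 3 CTCF sites parted in the depleted library. The site at -57.6 kb, with the core match, held 274 counts in the depleted library and 443 in the 96 h library and was called lower (-1.23, -1.45 to -1.01). The site at -75.6 kb held 350 in each (-0.53, -0.75 to -0.31, under the ratio that a call needs), and that at -85.2 kb 327 and 243 (-0.10, -0.34 to 0.15). Per distant count the site at -57.6 kb was again called lower (-0.75, -0.97 to -0.53), that at -75.6 kb was at -0.02 (-0.24 to 0.20), and that at -85.2 kb turned to 0.43 (0.18 to 0.67), not called. The intervals of the -57.6 and -85.2 kb sites did not overlap with either total. The fall was not particular to the CTCF site at -57.6 kb. The overlapping window of the listed enhancer at -56.6 kb was also called lower with both totals (-1.10 and -0.61). The tile centred at -50 kb, which holds no listed CTCF site, held 57.1 per 10000 counts in the depleted library and 133 in the 96 h library. The listed enhancers at -44.1, -41.0 and -37.7 kb were called lower (-1.04, -0.87 and -0.92), but not per distant count (-0.56, -0.38 and -0.43). Of 51 element windows, some of which overlap or coincide, 28 were called lower within 1 Mb, of which 10 were also called lower per distant count. By that total 3 windows were called higher, the listed enhancer at +14.1 kb (0.60) and the overlapping windows of the WDR55 start and its listed promoter (0.90 and 0.89).

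Counts that joined the enhancer, the boundary site and another listed element were few. Over the 7 listed elements between -85.2 and -37.7 kb they summed to 81, 122 and 229 at 0, 24 and 96 h and 130 in the depleted library, or 17.6, 29.6, 67.6 and 26.6 per 10000 counts. With the CTCF site at +6.1 kb in place of the boundary site they summed to 74, 97 and 156 at 0, 24 and 96 h and 163 in the depleted library, or 16.1, 23.5, 46.0 and 33.4 per 10000 counts. The triple with the -57.6 kb site and the boundary site was seen 8, 19 and 38 times at 0, 24 and 96 h and 13 times in the depleted library. Elements with overlapping windows were counted more than once in these sums. From the boundary viewpoint, triples with the enhancer and the 7 elements summed to 79, 253 and 351 at 0, 24 and 96 h. All 104 pairs of listed elements met by the enhancer summed to 105, 126 and 264 per 10000 counts at 0, 24 and 96 h and 129 in the depleted library. Relative to the counts of the single windows, enhancer triples changed by a median log2 of -0.05 for 96 h over 0 h (25 pairs). For the depleted over the 96 h library the median was -0.22 (27 pairs). Only pairs with at least 20 counts over both libraries entered, so a pair could enter through the library where it was high. All 25 of the first set were called higher at 96 h. These medians therefore cannot show whether triples changed relative to their parts. Cooperation between elements was not tested.

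**Figure D5:**
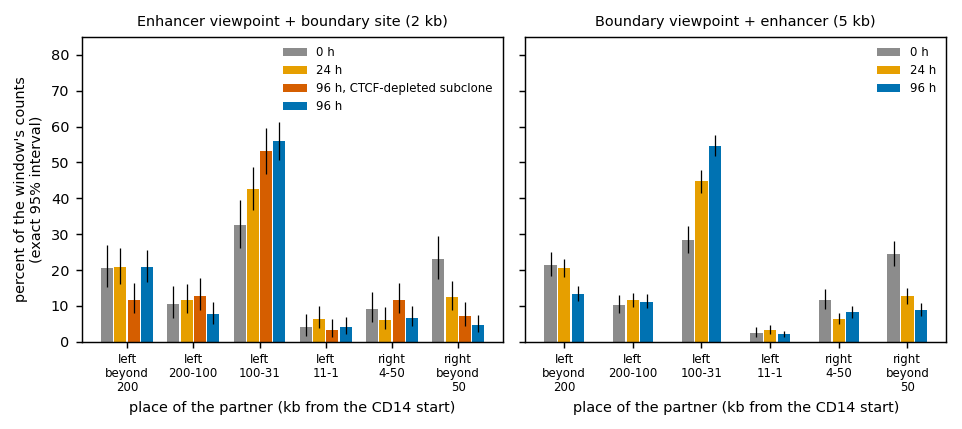
Share of a window's counts (vertical axis, percent, with exact 95% intervals) by the place of the remaining fragment, in kb from the CD14 start (horizontal axis), for counts joining the enhancer viewpoint with the boundary site on the left and the boundary viewpoint with the enhancer on the right. Partners in the band from -100 kb to 10 kb left of the enhancer make up 32.7%, 42.6% and 56.0% of the first at 0, 24 and 96 h and 53.2% in the depleted library, and 28.5%, 44.7% and 54.7% of the second at 0, 24 and 96 h.

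The loci nearest to CD14 in the course of enhancer and promoter contacts were LYN, RBM47 and SRGN, by Euclidean distance over 3 log2 odds ratios (24 h over 0 h, 96 h over 0 h, and depleted over 96 h) among the other 50 of 51 loci. LYN, a Src-family kinase gene, had 0.50, 0.93 and -1.24 (distance 0.30). RBM47, an RNA-binding protein gene, had 0.30, 1.07 and -1.69 (0.38), and SRGN, which encodes the granule proteoglycan serglycin, had 0.75, 1.15 and -1.09 (0.38). The likeness covers pooled libraries that share their controls and is a description.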

How the data were processed

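The authors digested chromatin of BLaER1 cells with NlaIII, ligated and captured it, ran CapCruncher in capture mode against hg38, pooled the 3 replicates and kept reads in which the viewpoint was joined to 2 or more other fragments (reporters) of its chromosome. The deposited unit is a count per pair of fragments, and every pair of a read was counted, so counts are not independent. The study's own normalisation for fragments per bin was not applied. All fragments of the 7 CD14 tables matched NlaIII sites of hg38. About 1 kb on each side of the enhancer viewpoint is absent, and around the boundary viewpoint chr5:140634640-140636209 is absent.

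Window counts were compared with the remaining counts within 1 Mb by a two-sided exact conditional binomial test (log2 odds ratio, pseudocount 0.5, 95% interval), adjusted by Benjamini-Hochberg over 51 loci, or over tiles and windows with at least 20 counts. The test takes the remaining counts as fixed. Where these are few, as for the share beyond the site and the ratio of +6.1 kb to the boundary site, it understates the error. No interval is printed for those measures. Loci were called at an adjusted p under 0.05, and tiles, windows and pairs only with a ratio of at least 1.5 as well. Windows and tiles spanned 5 kb. Shares have Clopper-Pearson intervals. IFNGR2 and TASL were not used, as in the study. Named loci were the 3 nearest in E-P contacts. Named elements were listed CTCF sites, promoters, protein-coding starts within 100 kb and the largest called tiles. The members, lists and tests were chosen with earlier results of these data known. Windows of 2 kb, bands, single fragments and element sums were added after the profiles had been seen. The test was tested on simulated independent Poisson counts, which do not cover the dependence between counts of 1 read. Python 3.11.15, NumPy 2.4.6, pandas 2.3.3, SciPy 1.17.1 and matplotlib 3.10.9 were used, with GENCODE annotation.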

Additional observations from a re-analysis of the deposited data

How the results depend on the processing

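No paired analysis was possible because each deposited table pools the 3 replicates, and for the same reason no replicate could be left out. The 15 changes in contacts at the promoter, the boundary site and the enhancer and in the share beyond the site kept their direction and their side of the threshold in every alternative run. For the share beyond the site that threshold rests on a test that understates the error. For 96 h over 0 h the promoter value ranged from 0.89 (windows of 2 kb) to 1.41 (distant counts as total) and the boundary site value from 0.98 (windows of 12 kb) to 1.47 (distant counts). For the depleted over the 96 h library the promoter value of -1.43 moved to -0.96 per distant count, -0.90 with each fragment pair counted once and -1.06 with adjacent fragments left out, and the boundary site value of -1.16 to -0.70, -0.71 and -0.80. The enhancer value from the boundary site for 24 h over 0 h, 0.49, became 0.22 with windows of 12 kb and 0.75 with windows of 2 kb. The cause was not tested. Element windows in the depleted over the 96 h library were also set on distant counts, an alternative chosen after seeing the data. Of 51 windows 11 turned from negative to positive, the CTCF sites at -85.2 and +6.1 kb (0.43 and 0.46), the listed enhancers at -381.5, -290.7, -230.5, -76.9 and -63.8 kb (0.24, 0.17, 0.19, 0.0655 and 0.028) and the EIF4EBP3, TMCO6, IK and DND1 starts (0.45, 0.53, 0.45 and 0.23), and none of these was called with either total.

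Counts of called tiles moved most. From the enhancer, tiles of 10 kb, fewer in number, gave 4 higher and 40 lower for 24 h over 0 h, 6 and 64 for 96 h over 0 h, and 2 higher for 96 h over 24 h. From the boundary site they gave 13, 14 and 4 higher for 24 h over 0 h, 96 h over 0 h and 96 h over 24 h. With the whole chromosome as total, the boundary site had 49 higher and 16 lower for 24 h over 0 h. With distant counts as total the enhancer had 18 higher for 24 h over 0 h, and 12 higher and 15 lower for the depleted over the 96 h library, and the boundary site 15 higher for 24 h over 0 h. With each pair counted once the enhancer had 15 lower for 96 h over 24 h, and 5 higher and 15 lower for the depleted over the 96 h library, and the boundary site 19 higher for 24 h over 0 h. With all counts divided by 3, a lower depth by construction, the enhancer had 3 higher and 1 lower for 24 h over 0 h, 17 lower for 96 h over 0 h, 2 lower for 96 h over 24 h and 13 lower for the depleted over the 96 h library, and the boundary site had 14 higher and 0 lower for 24 h over 0 h, 9 lower for 96 h over 0 h and 7 lower for 96 h over 24 h. Depth limits tiles and single fragments with few counts, and replicate spread is not covered.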
